A study of Mus musculus with 13 samples.

Results

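RNA recovered with the RNA-binding protein IMP2 was set against the total RNA of wild-type (WT) mouse embryonic fibroblasts, connective tissue cells grown from embryos. The comparison uses 5 of the series' 13 libraries: the 3 immunoprecipitation (IP) libraries titled for IMP2, called IMP2 IP, and the 2 wild-type total RNA libraries, 1 labelled IMP1 WT (replicate 1 here) and 1 labelled IMP2 WT (replicate 2 here). The other 8 libraries are 3 pull-downs with control immunoglobulin (IgG IP), 3 with IMP1 (IMP1 IP), and 1 total RNA library each from IMP1 knockout and IMP2 knockout (KO) cells. All cells were fibroblasts from E12.5 embryos grown with 10% serum, per the labels, which name the molecule of the total RNA libraries as total mRNA. The labels give a genotype to the total RNA libraries only, and for every library, wild type included, their treatment text speaks of cells lacking IMP1 or IMP2. They do not say whether libraries of 1 group came from separate cultures, so p-values measure only the spread between these libraries, which may be technical.

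IMP2 (gene Igf2bp2) belongs to a family of cytoplasmic proteins that hold mRNAs in particles with other RNA-binding proteins and influence where they go, how long they last and how much protein they yield. Its mRNA clients reported in the field include messages of insulin-like growth factor 2 and of the mitochondrial respiratory chain. Setting a pull-down against total RNA asks which RNAs hold a larger share of the pull-down than of the cell, whereas setting it against IgG asks which exceed non-specific recovery. Values of IgG IP and IMP1 IP over the same total RNA are therefore given beside many of those of IMP2 IP, and the 3 comparisons share the total RNA libraries.

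Gene counts in the 5 libraries ran from 14756745 to 21756430, and levels are given as CPM, counts scaled to the same total of gene counts in every library. Fibroblast markers were present in both groups, with 12 of 12 at 1 CPM or more, and summed to 22480 to 25100 CPM in IMP2 IP and 46100 to 58300 CPM in WT total RNA. Markers of skeletal muscle summed to 2.43 to 3.75 against 122 to 345 CPM, of nerve cells to 12.7 to 14.4 against 70.5 to 90.6, of epithelium to 2.18 to 2.74 against 13.1 to 40.5, and of macrophages to 29.4 to 31.5 against 27.4 to 35.5. The endothelial sum went the other way, with 10.8 to 12.1 CPM in IMP2 IP against 3.42 to 6.91 CPM in WT total RNA. Only 1 of 6 endothelial markers reached 1 CPM in IMP2 IP, and of 3 tested, 1 was higher and 1 lower. The other sums also rest on few members. Of 3 muscle and 3 nerve cell markers tested, 1 was higher and 2 were lower in each case. The 1 epithelial marker tested was lower, and of 7 macrophage markers 2 were higher and 5 lower. The macrophage markers Adgre1 and Tyrobp were at 0 in IMP2 IP, and 6 of 7 erythroid markers were at 0 in both groups. The part of these cell types in the results was not tested, and in bulk samples fewer cells of a type and less RNA per cell cannot be told apart.

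The total RNA and pull-down libraries differed in sex-linked RNA and in RNA class. Ddx3y, a helicase gene of the Y chromosome, was at 51 and 112 CPM in the WT total RNA libraries, and at 0 in all 3 IMP2 IP libraries. Kdm5d, Uty and Eif2s3y, also on the Y chromosome, had 9.01 to 49.3 CPM in WT total RNA and at most 0.0636 CPM in IMP2 IP. Xist, the RNA that coats the inactive X chromosome of female cells, stood at 48.7, 66.8 and 65.4 CPM in IMP2 IP and at 4.41 and 0 CPM in WT total RNA. The WT total RNA libraries thus carried Y-linked reads that the IMP2 IP libraries lacked, and the KO total RNA, IgG IP and IMP1 IP libraries had at most 0.181 CPM of any of the 4 Y-linked genes. Pseudogenes took 1.17% to 1.32% of gene counts in WT total RNA and 0.0494% to 0.0536% in IMP2 IP. Rpph1, Rmrp and Rn7sk, RNAs without a poly(A) tail, summed to 4.07 to 4.76 CPM in WT total RNA and to 2889 to 5085 CPM in IMP2 IP. Alignments to more than 1 place were 39% to 40.9% of those tallied in WT total RNA and 26.5% to 28.2% in IMP2 IP. The IgG IP libraries also differed from IMP2 IP in make-up. Reads in no gene were 29.2% to 30.4% of uniquely aligned reads in IgG IP and 6.54% to 7.2% in IMP2 IP. The single gene Gm26917 took 10.3% to 11.3% of gene counts in IgG IP and 0.0979% to 0.148% in IMP2 IP. The part of this make-up in differences between IMP2 IP and IgG IP was not tested. Recovery with the antibody, the cells used and the making of the libraries cannot be told apart in any difference between IMP2 IP and total RNA that IgG IP shares.

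**Figure D1:**
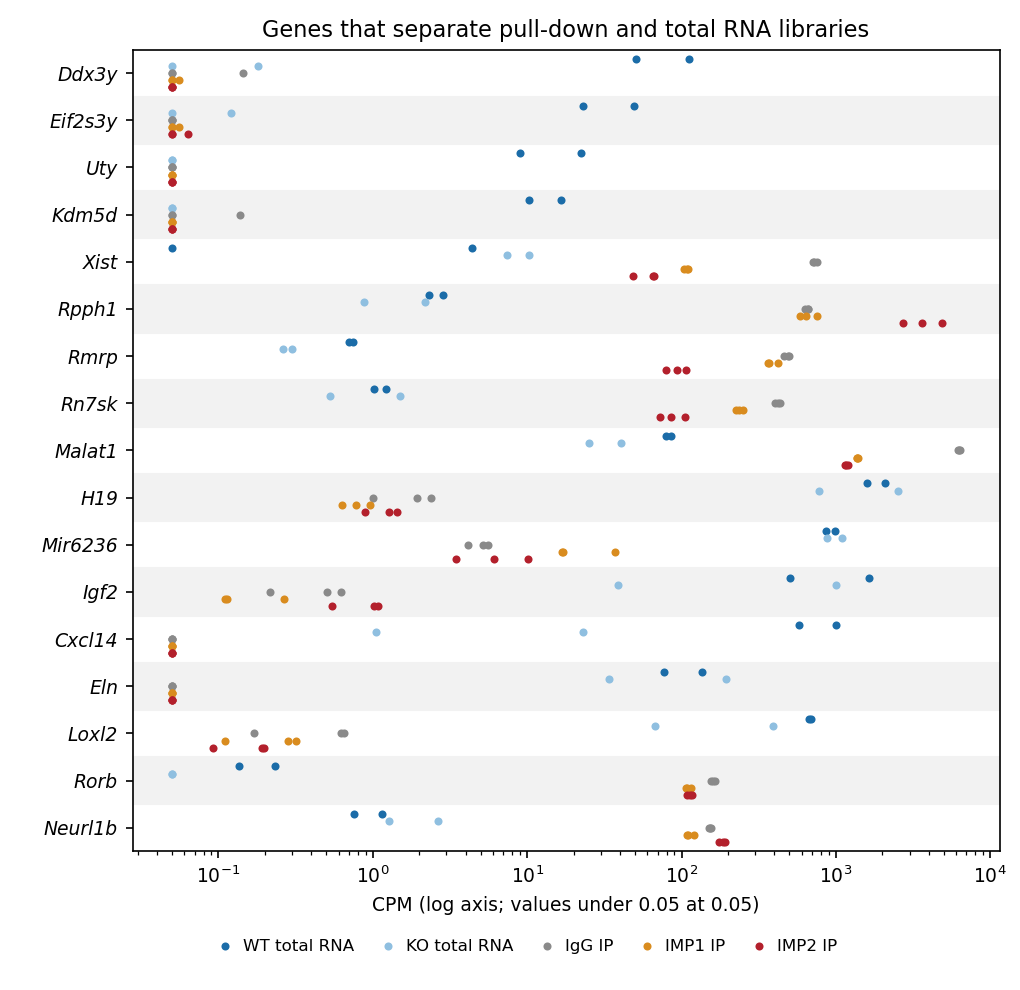
Level of 17 genes in each of the 13 libraries, in CPM on a log axis, with values under 0.05 CPM drawn at 0.05. Each point is 1 library, coloured by group. Ddx3y, Eif2s3y, Uty and Kdm5d have points at 9.01 CPM or above only for the 2 WT total RNA libraries, and Rpph1, Rmrp, Rn7sk and Malat1 have all 9 pull-down libraries above all 4 total RNA libraries.

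Most genes differed between IMP2 IP and WT total RNA. Of 14500 genes tested with edgeR's quasi-likelihood test, 12071 passed an adjusted p under 0.05, which is 83.2%. Higher in IMP2 IP were 5792 (39.9%), and lower were 6279 (43.3%). A difference of 2-fold or more was met by 3341 genes higher (23.0%) and 4198 lower (29.0%). The median log2 fold change over all genes was -0.064, and the median size was 1.06. Libraries of both groups did not overlap for 12812 genes (88.4%), so a lack of overlap and a passed threshold are both the common case here. The 2 total RNA libraries differed from each other by a median of 0.147 on the log2 scale, more than any pair of IMP2 IP libraries (0.0592 to 0.106). The other pull-downs also differed from total RNA at most genes: 13638 of 15578 genes (87.5%) passed for IgG IP, and 12852 of 14647 (87.7%) for IMP1 IP. Directly against IgG IP, 10926 of 14076 genes (77.6%) passed, 5673 higher in IMP2 IP (40.3%) and 5253 lower (37.3%), or 4270 higher and 6436 lower with upper quartile scaling. At least 2-fold differences from IgG IP were fewer, 568 genes higher (4.04%) and 2298 lower (16.3%). Against IMP1 IP 10053 genes (71.4%) passed, of which 1060 were higher (7.53%) and 1363 lower (9.68%) by 2-fold or more.

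**Figure D2:**
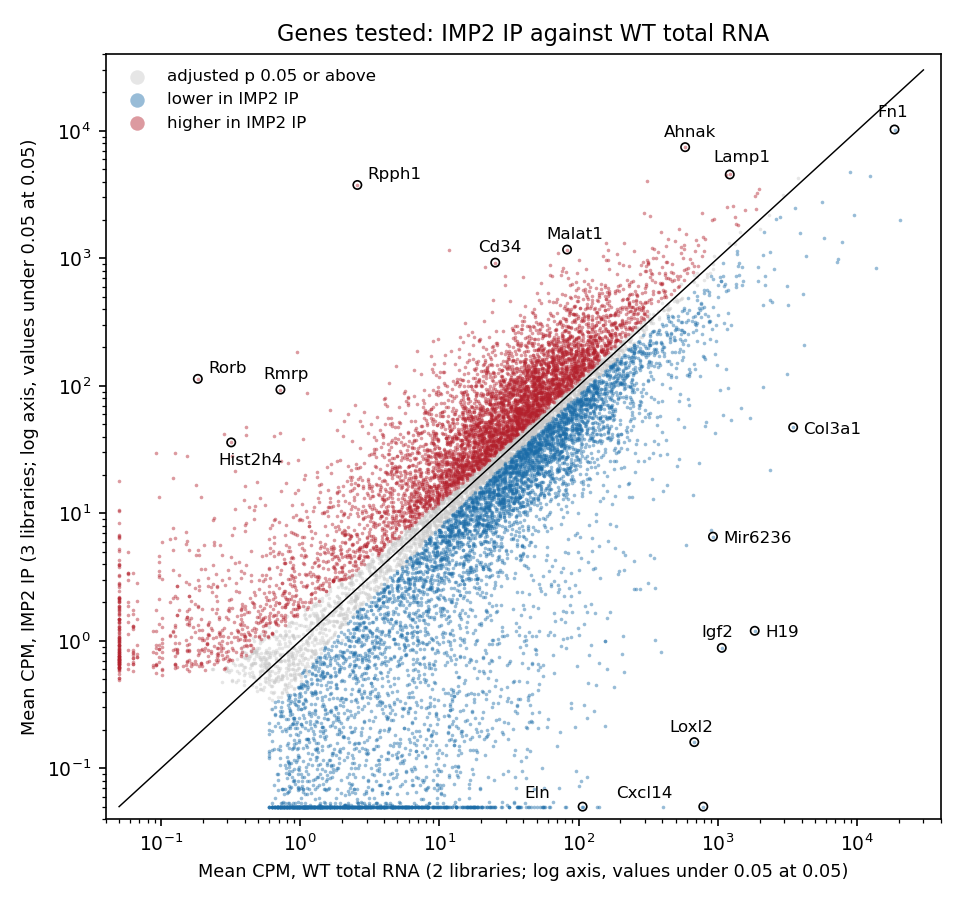
Mean level of each tested gene in WT total RNA (x axis) and IMP2 IP (y axis), in CPM on log axes, with values under 0.05 CPM drawn at 0.05. Red points are the 5792 genes higher and blue points the 6279 genes lower at an adjusted p under 0.05, grey points are the rest, and the line marks equal levels. Circles mark named genes, from Rpph1 at the upper left to Cxcl14 at the lower right.

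The protein-coding genes farthest above total RNA were at 1.15 CPM or less in the total RNA libraries. Rorb (ENSMUSG00000036192; GRCm38.p6, chromosome 19, 18930609 to 19111196), a nuclear receptor of the retinoid-related orphan family, was at 109, 114 and 117 CPM in IMP2 IP and at 0.136 and 0.232 CPM in WT total RNA. The log2 difference was 9.22 (SE 0.19, edgeR adjusted p = 5.05e-12). The pooled counts were 6560 and 6, a ratio of 607 with a 95% counting interval of 278 to 1653, which covers counting error only. Rorb was also at 155 to 164 CPM in IgG IP, above IMP2 IP, and at 0 in both KO total RNA libraries.

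Arfgef3, a protein of the ARF exchange factor family, followed at 18.5, 18.1 and 16.8 CPM against 0 and 0.058 CPM in total RNA. Neurl1b, a ubiquitin ligase of Notch ligands, was the most abundant of the 12 highest protein-coding genes, at 191, 175 and 186 CPM against 1.15 and 0.755 CPM (log2 fold change 7.63, SE 0.16, adjusted p = 5.05e-12). Lack of overlap between the groups was required of the 12 genes, and it held for 88.4% of all genes tested. Ppargc1a, a coactivator of mitochondrial biogenesis, stood at 48.9, 48.3 and 44.5 CPM against 0.407 and 0.406 CPM. Tbx20, a T-box factor known from heart development, stood at 39.3, 42.5 and 42.8 CPM against 0.339 and 0.232 CPM. The other 7 were the linker histone genes Hist1h1a (7.84) and Hist1h1b (7.46), the histone H4 gene Hist2h4 (6.84), the DNA sensor Aim2 (7.21) and the cadherin Cdh6 (6.48), as log2 fold changes over WT total RNA, and Lonrf3 and the sialomucin Podxl, each with 3 counts in total RNA. Their ratios were 315 (95% counting interval 108 to 1530) for Lonrf3 and 144 (49 to 698) for Podxl. In IgG IP the same genes were also above total RNA, Rorb by 9.85 and Hist2h4 by 5.68 on the log2 scale. Tested directly against IgG IP with edgeR, 1 of the 12 was higher in IMP2 IP, Hist2h4, at 1.12 (SE 0.12, adjusted p = 1.32e-08). Lower than IgG IP past the threshold were Rorb (-0.67), Arfgef3 (-0.69), Hist1h1a (-0.66), Hist1h1b (-0.82), Aim2 (-0.18), Tbx20 (-0.37), Ppargc1a (-0.62) and Cdh6 (-0.42). Neurl1b, Lonrf3 and Podxl did not pass. Over all genes tested against IgG IP, 40.3% were higher and 37.3% lower.

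At the other end stood genes of secreted and matrix proteins that were abundant in total RNA and had few or no counts in IMP2 IP. Cxcl14 (ENSMUSG00000021508; GRCm38.p6, chromosome 13, 56288643 to 56296811), a secreted chemokine, was at 578 and 996 CPM in WT total RNA and at 0 in all 3 IMP2 IP libraries. With 25677 counts in total RNA against a limit of 3 counts over the pooled IMP2 IP libraries, it was at least 15430-fold lower. Elastin (Eln), the elastic fibre protein, was at 136 and 77.2 CPM in WT total RNA and also at 0 in IMP2 IP, at least 2010-fold lower. Loxl2, an enzyme that crosslinks collagen and elastin, was at 686 and 669 CPM in total RNA against 0.191, 0.198 and 0.0919 CPM in IMP2 IP. Its pooled counts were 21652 and 9, and the log2 fold change was -11.99 (SE 0.15, adjusted p = 7.24e-13). These genes were also low in IgG IP, where Cxcl14 and Eln were at 0 and Loxl2 at 0.169 to 0.647 CPM.

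The other genes of this end were of mixed function. Igfbp2, a carrier of insulin-like growth factors, was at 382 and 420.5 CPM in WT total RNA against 0.127, 0 and 0 CPM in IMP2 IP. With 2 pooled counts in IMP2 IP, it was 11610-fold lower with a 95% counting interval of 3215 to 95920. Tnmd, a marker of tendon cells, was at 47.4 and 64.2 CPM against 0, and Ptgis, the prostacyclin synthase, at 52.9 and 57.1 CPM against 0. Gjb2 (a gap junction protein), Cthrc1 (a secreted collagen-repeat protein), Slitrk6 (a neuronal membrane protein), Cd55 (a complement regulator) and Stox2 had 25.9 to 210 CPM in the WT total RNA libraries and at most 0.046 CPM in any IMP2 IP library. Ddx3y of the Y chromosome completed the 12. Levels in the KO total RNA libraries differed widely between genes: Eln was at 193 and 33.9 CPM in the IMP1 KO and IMP2 KO libraries, Cxcl14 at 1.05 and 22.9 CPM and Igfbp2 at 34.2 and 7795 CPM.

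Counted over the genome, 270 genes had at least 10 CPM in both WT total RNA libraries and under 0.5 CPM in all 3 IMP2 IP libraries, with limits chosen after the values were seen. Of these, 150 were pseudogenes and 109 protein-coding. Of the 109, 95 were under 0.5 CPM in all 9 pull-down libraries, IgG IP included, and 41 of the 109 had at least 10 CPM in both KO total RNA libraries. The reverse pattern, at least 10 CPM in all 3 IMP2 IP libraries and under 0.5 CPM in both WT total RNA libraries, was met by 15 genes, 14 of them protein-coding and 4 of those histones. Of the 14, 13 had at least 10 CPM in all IgG IP libraries.

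Among non-coding RNAs, the RNA subunit of ribonuclease P stood apart. Rpph1 (ENSMUSG00000092837; GRCm38.p6, chromosome 14, 50807447 to 50807771), which trims the ends of transfer RNA precursors, was at 4905, 3630 and 2737 CPM in IMP2 IP and at 2.3 and 2.85 CPM in WT total RNA. The log2 fold change was 10.53 (SE 0.33, adjusted p = 8.24e-11), and the 3 IMP2 IP libraries differed among themselves by more than the libraries of IgG IP (631 to 663 CPM) or IMP1 IP (586 to 756 CPM). Against IgG IP its log2 fold change was 2.35 (SE 0.13, adjusted p = 2.58e-13). Rmrp, the RNA of ribonuclease MRP, was at 94.1, 106 and 79.6 CPM in IMP2 IP, 0.745 and 0.697 CPM in WT total RNA and 460.5 to 495 CPM in IgG IP. Rn7sk, which holds a transcription elongation factor inactive, was at 86, 105 and 73 CPM, 1.02 and 1.22 CPM and 406 to 435 CPM in the same order. Both were thus above total RNA and below IgG IP, with log2 fold changes of 7.04 and 6.31 over total RNA and of -2.54 and -2.44 over IgG IP (adjusted p = 4.41e-18 and 2.77e-17).

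Malat1, an RNA of nuclear speckles, was at 1161, 1193 and 1153 CPM in IMP2 IP and 79.4 and 85.9 CPM in WT total RNA, while IgG IP held 6194 to 6390 CPM. Xist was above WT total RNA by 4.90 (SE 0.53, adjusted p = 3.04e-06) on the log2 scale, and below IgG IP with a log2 fold change of -3.75 (adjusted p = 3.96e-21). Of the 16 tested nuclear or abundant non-coding RNAs, 10 were higher and 4 lower than in total RNA, and the median log2 fold change was 3.44, against 5.68 for IgG IP over the same libraries. By class, 20 of 23 small structured RNAs were higher (median 5.86, or 4.04 with genes at 0 in a group set at their bound), 111 of 419 long non-coding RNAs were higher and 175 lower (median -0.33), and 826 of 892 pseudogenes were lower (median -6.17, or -5.43 with such bounds). Pseudogene reads can belong to their parent genes, and the labels do not say how reads that fit several places were counted.

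H19 (ENSMUSG00000000031; GRCm38.p6, chromosome 7, 142575530 to 142578146), an imprinted RNA of embryonic tissue and a reported client of the IMP family, lay at the other end. It was at 1599 and 2086 CPM in WT total RNA and 1.27, 0.892 and 1.43 CPM in IMP2 IP, which gave a log2 difference of -10.55 (SE 0.19, adjusted p = 2.94e-12). IgG IP had 1.01 to 2.37 CPM and IMP1 IP 0.634 to 0.96 CPM, while the IMP1 KO and IMP2 KO total RNA had 782 and 2523 CPM. Every pull-down library was therefore below every total RNA library. The imprinted RNAs Rian and Meg3, from 1 cluster, and Dnm3os, the host of a microRNA pair, were also lower. Rian was at 14.9, 17.2 and 18 CPM against 441 and 416 CPM in WT total RNA, Meg3 at 4.58, 4.81 and 5.56 CPM against 72 and 88.9 CPM, and Dnm3os at 2.23, 2.83 and 1.93 CPM against 41.4 and 73 CPM. Meg3 and Dnm3os were further lower than in IgG IP, by log2 fold changes of -2.79 and -2.64 (adjusted p = 1.34e-16 and 4.58e-13).

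Mir6236, annotated as a microRNA gene, was among the 5 lowest non-coding genes, and its short mature form is shown because it is the only member of that group with an entry in the sequence tables. RefSeq (GRCm38.p6) places it at chr9:110281353-110281371 on the plus strand. Capitals mark the seed, bases 2 to 8 of 19.
mmu-miR-6236: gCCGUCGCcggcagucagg
Counts for this gene can include reads of ribosomal RNA, which the gene table does not separate. Mir6236 was at 867 and 980 CPM in WT total RNA, 879.6 and 1092 CPM in KO total RNA and 10.1, 6.1 and 3.45 CPM in IMP2 IP, and the log2 difference was -7.15 (SE 0.27, adjusted p = 2.64e-10). Total RNA libraries of every genotype were high and pull-downs low, with 4.12 to 5.54 CPM in IgG IP and 16.9 to 37.1 CPM in IMP1 IP.

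The 10 genes with most counts in IMP2 IP were Rpph1, described above, and 9 mRNAs of matrix, cytoskeleton and lysosome. Fibronectin (Fn1) led with 9792, 10250 and 10670 CPM in IMP2 IP and 16830 and 20370 CPM in WT total RNA, which gave a log2 difference of -0.83 (SE 0.12, adjusted p = 5.3e-05) that was -0.60 and did not pass with all 4 total RNA libraries. Ahnak, a giant scaffold protein, was at 7875, 7130 and 7305 CPM against 595 and 570.1 CPM in total RNA (log2 fold change 3.71, SE 0.12, adjusted p = 1.12e-10), and Plec, which links cytoskeletal filaments, at 4473, 3672 and 3876 CPM against 307 and 312 CPM (log2 fold change 3.73, SE 0.13, adjusted p = 1.71e-10). In IgG IP both exceeded IMP2 IP, with 19800 to 20350 CPM of Ahnak and 7511 to 7766 CPM of Plec. Lamp1, a glycoprotein of the lysosome membrane, was at 4388, 4604 and 4628 CPM against 1207 and 1231 CPM in WT total RNA, 2043 to 2120 CPM in IgG IP and 2212 to 2256 CPM in IMP1 IP. It thus stood above all 3 backgrounds, by log2 differences of 1.93 (SE 0.10, adjusted p = 5.07e-09) over total RNA, 0.95 (SE 0.03, adjusted p = 4.07e-17) over IgG IP and 0.69 (SE 0.03, adjusted p = 2.79e-15) over IMP1 IP.

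Beta-actin (Actb), a reported client of the family, gave 4264, 4397 and 4202 CPM in IMP2 IP and 4362 and 3175 CPM in WT total RNA, and the libraries overlapped (log2 fold change 0.22, SE 0.13, adjusted p = 0.125). Without the IMP1 WT library Actb was 0.45 above the remaining total RNA library and passed the threshold. Against IgG IP (1904 to 1941 CPM) it was higher by 0.99 (SE 0.029, adjusted p = 1.52e-17). The other abundant mRNAs were Myh9 (2.01) and Flna (0.85), of the actomyosin cytoskeleton, above total RNA, and the collagens Col1a1 (-1.45) and Col1a2 (-0.88) below it. Myh9 and Flna were lower than in IgG IP (-0.69 and -0.67) and in IMP1 IP (-1.19 and -1.46), all past the threshold. Col1a1 and Col1a2 did not pass against IgG IP (0.16 and 0.0015).

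The mRNA of IMP2 itself was not raised over total RNA. Igf2bp2 (ENSMUSG00000033581; GRCm38.p6, chromosome 16, 22059009 to 22163299) was at 120.4, 130.2 and 132 CPM in IMP2 IP and 168 and 146 CPM in WT total RNA, which gave a log2 difference of -0.27 (SE 0.085, adjusted p = 0.0117); without the IMP1 WT library it was -0.17 and did not pass, and with all 4 total RNA libraries, of which the IMP2 KO library held 27.8 CPM, it was 0.10. It was higher than in IgG IP by 0.30 (SE 0.052, adjusted p = 1.86e-05) and than in IMP1 IP by 0.97 (SE 0.054, adjusted p = 2.57e-13). Igf2bp1 was at 125, 132 and 134 CPM against 32.3 and 23.4 CPM in WT total RNA (log2 fold change 2.27, SE 0.12, adjusted p = 4.84e-09), and at 153 to 154 CPM in IgG IP, where it was higher still. Igf2bp3 was at 17.4, 19.3 and 18.2 CPM against 30.8 and 28.9 CPM (log2 fold change -0.67, SE 0.10, adjusted p = 5.32e-05; -0.62 and not past the threshold with all 4 total RNA libraries).

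Most messages of RNA-binding proteins that share particles with the IMP family were above total RNA. Of 27 tested, 19 were higher (70.4%) and 5 lower (18.5%), next to 39.9% and 43.3% over all genes tested. The median log2 fold change was 0.91 against -0.064 for all genes. IgG IP gave a median of 0.67 and IMP1 IP of 0.78 over the same total RNA. Directly against IgG IP, 14 of the 27 were higher in IMP2 IP and 9 lower. Khsrp, a regulator of mRNA decay, was at 581, 588 and 591 CPM against 101 and 96.2 CPM in total RNA (log2 fold change 2.61, SE 0.088, adjusted p = 1.29e-10). Pabpc1, the cytoplasmic poly(A)-binding protein, was at 2272, 2307 and 2259 CPM against 804 and 747 CPM (log2 fold change 1.59, SE 0.095, adjusted p = 1.34e-08) and exceeded IgG IP by 0.69 (SE 0.029, adjusted p = 3.75e-15). In both cases all IMP2 IP libraries were above both total RNA libraries. Larp1, which binds messages of the translation machinery, was at 2.01 over total RNA but at -0.092 over IgG IP, both past the threshold. Elavl1 (1.46), G3bp1 of stress granules (1.51) and Caprin1 (0.91) were also higher than in total RNA, all past the threshold. Ybx1, a core protein of messenger particles, went the other way, with 166, 214 and 191 CPM against 409 and 300.1 CPM in total RNA (log2 fold change -0.86, SE 0.13, adjusted p = 4.43e-05).

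Reported RNA clients of the family lay on both sides of total RNA. Of 20 tested, 9 were higher (45%), 6 lower (30%) and 5 did not pass. Over all genes tested, 39.9% were higher and 43.3% lower. The clients' median log2 fold change of 0.23 turned to -0.032 with upper quartile scaling. It was 0.39 without the IMP1 WT library and 0.082 without the IMP2 WT library. Mki67, a protein of mitotic chromosomes, was the highest at 724, 756 and 746 CPM against 66.8 and 57.2 CPM in total RNA (log2 fold change 3.62, SE 0.10, adjusted p = 4.22e-11), with 1310 to 1360 CPM in IgG IP. Igf2, the growth factor for which the family is named, was at 1.08, 0.545 and 1.01 CPM in IMP2 IP against 1635 and 502 CPM in WT total RNA (log2 fold change -10.21, SE 0.52, adjusted p = 3.24e-09). The total RNA libraries themselves differed for Igf2, with 38.5 and 1007 CPM in the IMP1 KO and IMP2 KO libraries, and IgG IP held 0.216 to 0.619 CPM.

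In the insulin-like growth factor and insulin pathway, in which secreted ligands held by binding proteins act through membrane receptors, substrates and kinases, members lay on both sides of total RNA. Lower were the ligands Igf1 (-1.70) and Igf2 (-10.21) and the secreted binding proteins Igfbp3 (-1.66), Igfbp4 (-2.69), Igfbp5 (-7.05), Igfbp6 (-3.18) and Igfbp7 (-4.43), as log2 fold changes over WT total RNA, and Igfbp2 as given above. The other 4 lower genes were of the signalling chain: Rheb (-0.90), Akt1 (-0.78), Eif4ebp1 (-0.74) and Rps6kb1 (-0.40). Among the 17 higher were the receptors Igf1r (1.95), Insr (1.69) and Igf2r (1.51), the substrates Irs1 (2.91) and Irs2 (4.34), and Tsc1 (2.44), Tsc2 (2.02) and Mtor (1.47), which control growth downstream. Irs2 was at 80.2, 74.7 and 81.7 CPM in IMP2 IP against 4.34 and 3.66 CPM in total RNA, and its groups did not overlap. Over the 31 genes, 17 were higher and 12 lower, with a median of 0.97, which was 0.40 with all 4 total RNA libraries. IgG IP gave 0.69 over WT total RNA, and the median of IMP2 IP over IgG IP was -0.21. The genes named in this paragraph beyond Irs1, Irs2, Tsc1, Tsc2, Igfbp2 and Igf2 were chosen after their values were seen.

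Messages of the respiratory chain were below total RNA in IMP2 IP, though further below it in IgG IP. Of 37 nuclear-encoded complex I genes, 1 was higher and 33 were lower, with a median of -1.12 for IMP2 IP, -1.90 for IgG IP and -2.14 for IMP1 IP over WT total RNA. Complexes II to V gave 0 higher and 34 lower of 39, with medians of -1.10, -1.98 and -2.05 in the same order. Set directly against IgG IP, the medians of IMP2 IP were 0.78 and 0.87. The sign for the respiratory chain thus depended on the background. Cox4i1, a subunit of cytochrome c oxidase, shows it per library. It was at 80.9, 75.4 and 67.1 CPM in IMP2 IP, 389.5 and 358 CPM in WT total RNA and 34.2 to 37 CPM in IgG IP, and differed on the log2 scale by -2.29 (SE 0.093, adjusted p = 5.09e-10) over total RNA and 0.88 (SE 0.066, adjusted p = 6.8e-11) over IgG IP. Ndufa1, a small subunit of complex I, was at 8.91, 10.4 and 9.01 CPM, 49.8 and 48.5 CPM and 3.29 to 4.19 CPM in the same libraries. The complex I gene above total RNA was Ndufv1, which encodes the flavin-binding subunit, at 111, 90.7 and 86.1 CPM against 72.2 and 66.5 CPM (log2 fold change 0.50, SE 0.11, adjusted p = 0.00123), though 0.24 and not past the threshold with upper quartile scaling. The mitochondrially encoded protein genes had 0 counts in every library.

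Mitochondrial ribosomal proteins followed with a smaller difference, while import factors and carriers were called about as often each way as all genes. Of 76 mitochondrial ribosomal protein genes, 9 were higher and 46 lower, with a median of -0.42 over total RNA (-0.68 with upper quartile scaling) against -1.12 for IgG IP. Mrpl54 was the lowest named, at 8.97, 10.3 and 9.19 CPM against 63.7 and 54.8 CPM, while Mrps27 was higher (1.21). Import factors and carriers gave 19 higher and 20 lower of 48 (median -0.14; -0.080 without IMP2 IP replicate 1 and -0.40 with upper quartile scaling). These shares, 39.6% and 41.7%, were near the 39.9% and 43.3% over all genes tested. Among the carriers Slc25a4, the adenine nucleotide carrier, was lower (-1.55) and Slc25a37, an iron importer, higher (2.12).

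Messages of the cytosolic ribosome were below total RNA in all 3 pull-downs. Of 82 genes, 9 were higher and 66 lower in IMP2 IP, with a median of -1.08, against -1.29 in IgG IP and -1.50 in IMP1 IP. Rps16 was at 0.636, 0.496 and 0.827 CPM against 58.5 and 43.1 CPM, and Rps7 at 2.93, 2.48 and 1.61 CPM against 46.9 and 41.7 CPM in WT total RNA. Rps28 went the other way, at 40.5, 41.6 and 33.5 CPM against 0.949 and 1.16 CPM (log2 fold change 5.20, SE 0.19, adjusted p = 2.49e-10), as did Rpl35 at 29.1, 18.4 and 16.4 CPM against 0.271 and 0.406 CPM. Ribosomal protein genes have many near-identical pseudogenes, and the values of single genes are uncertain for that reason. Of 36 translation factors, 14 were higher and 14 lower. These shares, 38.9% each, were near the 39.9% and 43.3% over all genes tested. Their median of 0.093 turned negative (-0.17) with upper quartile scaling. The scaffold initiation factor Eif4g1 was higher, at 1289, 1246 and 1265 CPM against 597 and 539.7 CPM (log2 fold change 1.19, SE 0.092, adjusted p = 1.31e-07), and the elongation factor Eef1b2 lower, at 173, 165 and 147 CPM against 852 and 754 CPM (log2 fold change -2.28, SE 0.095, adjusted p = 6.48e-10). Of 37 aminoacyl-tRNA synthetase genes, whose products load transfer RNAs, 26 were higher and 2 lower (median 0.61, 0.35 with upper quartile scaling; 0.35 for IgG IP). Aars led at 2440, 2194 and 2219 CPM against 282 and 308 CPM in total RNA (log2 fold change 2.99, SE 0.11, adjusted p = 2.85e-10).

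Proteasome and secretory pathway genes were, by their medians, below total RNA in IMP2 IP and further below it in IgG IP. Of 32 proteasome genes, 25 were lower and 3 higher, with medians over total RNA of -0.49 in IMP2 IP (-0.76 with upper quartile scaling) and -1.15 in IgG IP. Psmd8, a lid subunit, was at 119, 120.5 and 111 CPM in IMP2 IP, 526 and 394 CPM in WT total RNA and 47.3 to 49.2 CPM in IgG IP. For translocation, glycosylation and folding in the endoplasmic reticulum, 28 of 46 genes were lower and 7 higher (medians -0.53 and -1.22). Here the prolyl isomerase Ppib was lower, at 36.1, 41 and 38.3 CPM against 171 and 169.8 CPM, and the chaperone Hyou1 higher, at 923, 816 and 848 CPM against 226 and 231 CPM. Vesicle coat and cargo receptor genes gave 22 lower and 5 higher of 35 (medians -0.62 and -1.39), with the coatomer subunit Copz2 at 19.9, 20.3 and 18.2 CPM against 149.8 and 168 CPM. Set against IgG IP, the medians of IMP2 IP were positive for these 3 lists: 0.68, 0.68 and 0.53. Lysosome genes differed from them in lying above total RNA, with 25 of 43 higher and 12 lower (median 0.43, 0.17 with upper quartile scaling, and -0.36 for IgG IP). After Lamp1, the proton pump genes Atp6ap2 (1.81) and Atp6v1c1 (1.79) and the galactosidase Gla (1.55) led, and the cathepsin genes Ctsk (-7.98) and Ctsf (-4.81) were lower.

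Matrix genes had the lowest medians among the lists of protein function. Of 21 collagen genes, 19 were lower and 1 higher, with a median of -2.01 for IMP2 IP, -1.20 for IgG IP and -0.62 for IMP1 IP over WT total RNA. Col3a1, a fibrillar collagen of soft tissue, was at 56.2, 42.6 and 42.8 CPM in IMP2 IP against 2550 and 4408 CPM in total RNA (log2 fold change -6.18, SE 0.23, adjusted p = 2.45e-10). Col6a3, of the beaded filaments around cells, was the gene above total RNA, at 1067, 949.5 and 1006 CPM against 443 and 677 CPM (log2 fold change 0.88, SE 0.15, adjusted p = 0.000197). Other matrix glycoproteins and crosslinking enzymes gave 39 lower and 8 higher of 47 (median -1.98; -1.78 for IgG IP). Lumican (Lum), which spaces collagen fibrils, was at 0, 0.0496 and 0.0919 CPM against 42.4 and 79.6 CPM, and Mfap4 at 0, 0.0992 and 0.184 CPM against 30.4 and 48.2 CPM. Timp3, a protease inhibitor bound to matrix, was higher, at 1488, 1558 and 1586 CPM against 510.1 and 664 CPM (log2 fold change 1.43, SE 0.12, adjusted p = 3.34e-07). By their median collagens were also below IgG IP (-0.44), as were snoRNA host genes (-0.65), Hox genes (-0.29) and interferon-stimulated genes (-0.039) among the lists below total RNA. Adhesion receptors gave 15 higher (44.1%) and 17 lower (50%) of 34, next to 39.9% and 43.3% over all genes tested. Their median was -0.63, -0.25 without IMP2 IP replicate 2 and -0.23 without replicate 3.

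Cytoskeletal genes divided by the kind of protein. Of 49 actin and contractile genes, 37 were lower and 8 higher (medians -0.98 in IMP2 IP and -1.76 in IgG IP over total RNA). Tmsb4x, which sequesters actin monomers, was at 95.4, 109.6 and 90.8 CPM against 2321 and 1908 CPM in WT total RNA (log2 fold change -4.39, SE 0.12, adjusted p = 2.48e-11), and the smooth muscle genes Actg2 (-8.86) and Cnn1 (-6.67) were lower still. The summed level of skeletal muscle markers moved with this list, at 2.43 to 3.75 CPM in IMP2 IP and 122 to 345 CPM in WT total RNA. Of 3 such markers tested, 1 was higher and 2 lower, and the sum was 4.645 to 117 CPM in KO total RNA. The part of muscle cells in the result was not tested. Giant scaffold and linker genes went the other way, 34 higher and 2 lower of 39 (median 2.00), with a larger median in IgG IP (3.21) and IMP1 IP (3.85). Syne2, which links the nucleus to actin, was at 128, 119.8 and 121 CPM in IMP2 IP, 7.66 and 7.14 CPM in total RNA and 336 to 342 CPM in IgG IP. Tubulin and stathmin genes gave 13 lower and 6 higher of 19 (median -0.87; -1.63 in IgG IP). Among them was the neuronal Stmn2, at 0.0636, 0.397 and 0.23 CPM against 36.2 and 51.4 CPM.

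Cell cycle genes were higher with few exceptions. Of 45 genes, 40 were higher and 3 lower, with a median of 1.96, next to 1.57 for IgG IP and 1.86 for IMP1 IP. Cdt1, which licenses replication origins, was at 132, 124 and 127 CPM against 13.3 and 8.07 CPM in total RNA and 69 to 70.9 CPM in IgG IP. Cdk6, a kinase of the G1 phase, was at 52.6, 52.6 and 53.4 CPM, 2.58 and 2.85 CPM and 78 to 79.9 CPM in the same order. Both were above total RNA without overlap, and they lay on opposite sides of IgG IP (0.69 and -0.75; adjusted p = 5.87e-12 and 2.69e-12). The G1 cyclin genes Ccnd3 (-1.01) and Ccne1 (-1.55) were lower than in total RNA. Replication-dependent histone messages, which end in a stem-loop in place of a poly(A) tail, showed 38 genes higher and 7 lower of 45 (median 3.60, or 3.45 with genes at 0 in a group set at their bound, and 4.87 in IgG IP). The list's median was -0.36 over those members with at least 1 CPM in both groups. The summed level of the listed histones was 254 to 319 CPM in IMP2 IP and 281 to 319 CPM in WT total RNA, so the sum did not move with the list's median. Hist1h2bc was lower, at 3.82, 5.4 and 4.09 CPM against 101 and 109 CPM. Near-identical histone copies share reads, and single members are uncertain.

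Chromatin regulators were mostly higher. Histone lysine methyltransferases and demethylases gave 37 higher and 2 lower of 41 (median 0.95; 1.53 in IgG IP). Kmt2d, a methyltransferase of enhancers, was at 481, 445 and 471 CPM against 30.8 and 33.2 CPM in total RNA and 1202 to 1209 CPM in IgG IP. Zfp zinc finger genes gave 168 higher and 76 lower of 341 (median 0.38; 0.12 with upper quartile scaling; 0.58 in IgG IP). Of 19 genes of m6A marking and reading, 14 were higher and 3 lower (median 0.75; 0.49 with upper quartile scaling; 0.82 in IgG IP). The demethylase Alkbh5 was higher, at 379, 383 and 395 CPM against 84.9 and 89.1 CPM, while the methyltransferase Mettl3 was lower (-0.63). Splicing regulators of the hnRNP, PCBP and SR families gave 21 higher and 8 lower of 39 (median 0.34; 0.075 with upper quartile scaling).

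The remaining lists covered surface, signalling, metabolic and host genes. Of 21 selenoprotein genes, 13 were lower and 5 higher (median -1.16; -1.775 in IgG IP), with Selenow at 42.9, 43 and 40.1 CPM against 164 and 184 CPM. Of 22 interferon-stimulated genes, 16 were lower and 2 higher (median -1.39; -1.365 in IgG IP). The antiviral membrane protein Ifitm3 was at 32.2, 44 and 35.9 CPM against 224 and 298 CPM, and Ifit2 was higher (2.52). Of 12 snoRNA host genes, 9 were lower and 2 higher (median -1.64; -0.84 in IgG IP), and Gas5, a growth arrest RNA, was lower (-2.36). Hox genes, transcription factors of body position, gave 10 higher and 22 lower of 35 (median -0.61, or -0.38 with all 4 total RNA libraries; -0.22 in IgG IP). Cholesterol and fatty acid synthesis gave 16 higher and 10 lower of 29 (median 0.30; 0.034 with upper quartile scaling), with the fatty acid synthase Fasn at 939, 812 and 893 CPM against 214 and 201 CPM (log2 fold change 2.12, SE 0.10, adjusted p = 1.92e-09). Glycolysis gave 7 higher (38.9%) and 9 lower (50%) of 18, with the pyruvate kinase Pkm higher (1.03) and Ldhb lower (-1.75). Its median was -0.28, -0.16 without the IMP2 WT library, and 0.098 with all 4 total RNA libraries. Lipid-anchored surface proteins gave 8 higher and 13 lower of 27 (median -0.34, -0.58 without the IMP1 WT library and -0.22 without the IMP2 WT library). TGF-beta and BMP signalling gave 18 higher (47.4%) and 15 lower (39.5%) of 38 (median 0.19, and -0.069 with upper quartile scaling). Over all genes tested, 39.9% were higher and 43.3% lower.

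**Figure D3:**
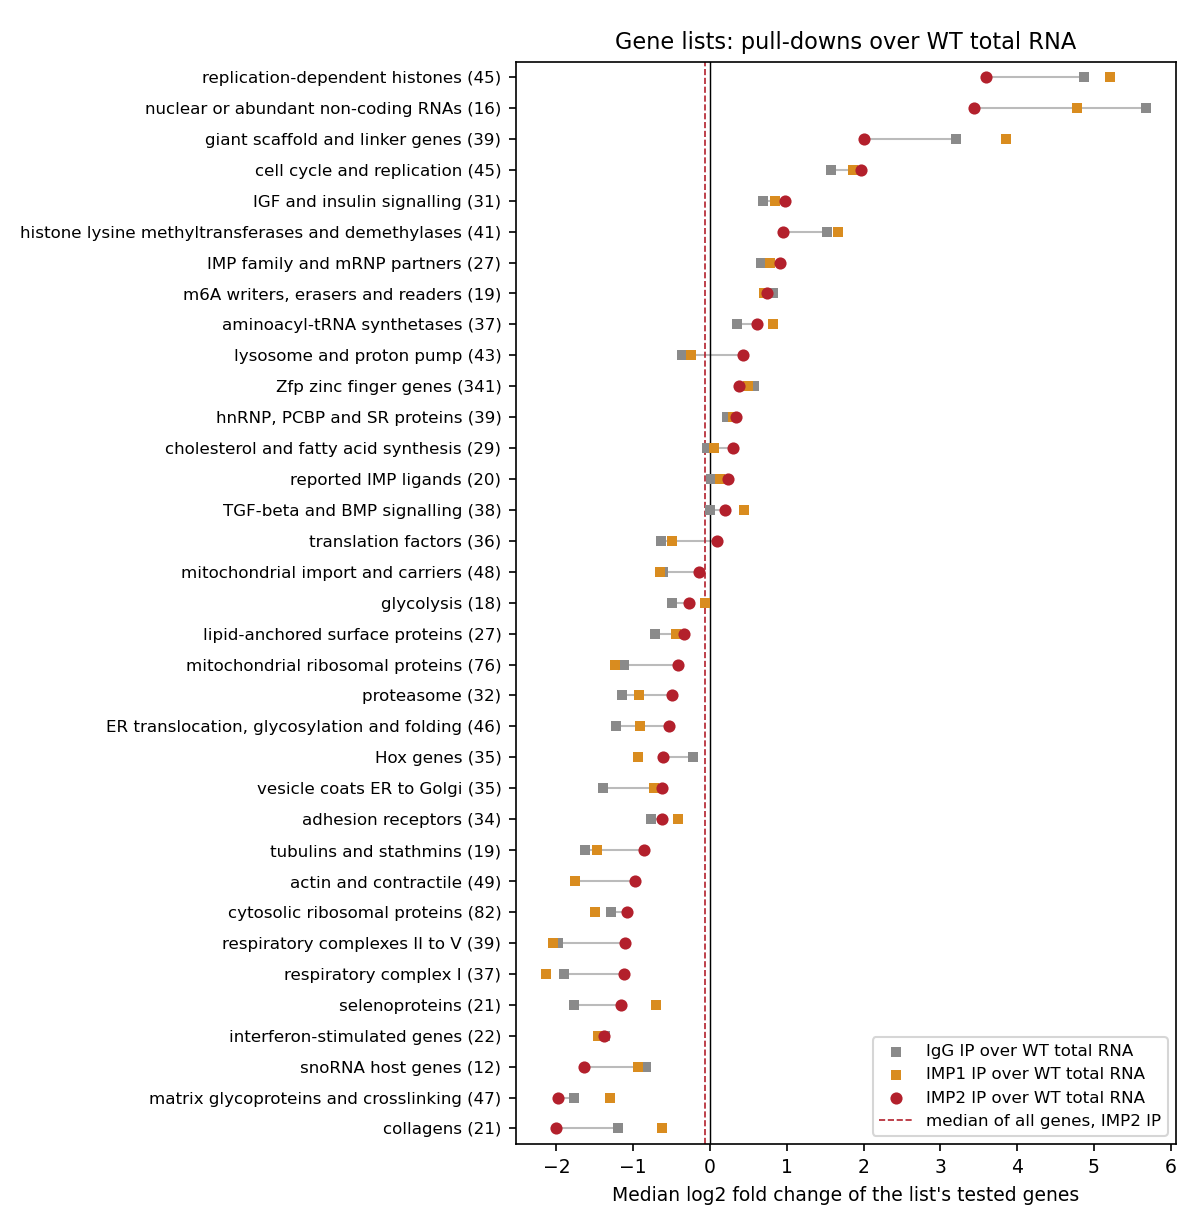
Median log2 fold change over WT total RNA of the tested genes of each list, for IMP2 IP (red circles), IgG IP (grey squares) and IMP1 IP (orange squares), with the number of genes in brackets. Grey lines join IgG IP and IMP2 IP, and the dashed line is the median of all genes in IMP2 IP. IMP2 IP lies between 0 and IgG IP for respiratory, proteasome and giant scaffold genes, and collagens are lowest in IMP2 IP.

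Genes past the threshold in the same direction against total RNA, IgG IP and IMP1 IP were ranked by their difference from total RNA. The 10 highest over total RNA were Hist2h4, Cd34, Rps28, Fam180a, P2rx3, Coro2a, Elovl4, Lhx6, Lpar2 and Nptxr. Cd34 (ENSMUSG00000016494; GRCm38.p6, chromosome 1, 194938821 to 194961292), a sialomucin of stem and stromal cells, was the most abundant, at 856, 956 and 961 CPM in IMP2 IP and 19.9 and 30.5 CPM in WT total RNA. IgG IP had 414 to 428 CPM and IMP1 IP 302 to 313 CPM, and the IMP2 IP libraries lay above all other libraries of the series. Cd34 was higher by 5.22 (SE 0.18, adjusted p = 1.39e-10) over total RNA, by 0.96 (SE 0.038, adjusted p = 1.84e-15) over IgG IP and by 1.27 (SE 0.039, adjusted p = 6.03e-18) over IMP1 IP. Nptxr, a receptor for neuronal pentraxins, was at 169.7, 166 and 167 CPM in IMP2 IP, 10.8 and 17 CPM in WT total RNA, 103 to 105 CPM in IgG IP and 118 to 122 CPM in IMP1 IP. Elovl4, which elongates very long fatty acids, was at 51, 62.8 and 57.7 CPM against 3.93 and 3.19 CPM in total RNA, and Lpar2, a receptor for lysophosphatidic acid, at 65.1, 69.7 and 68.6 CPM against 6.03 and 4.3 CPM. Over IgG IP these 10 genes were higher by 0.26 (Lhx6, 0.08 and not past the threshold with upper quartile scaling) to 1.12 (Hist2h4), far less than over total RNA (3.61 to 6.84). Fam180a was 1.67 and did not pass when the KO libraries were added to total RNA, where the IMP2 KO library held 28.2 CPM.

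Lowest among the genes below all 3 were Myh11, Fbn2, Kif1a, Creld1, Col3a1, Jph2, Dusp18, Col11a1, Peg3 and Cemip. Myh11, the smooth muscle myosin, was at 0.255, 0.149 and 0.23 CPM in IMP2 IP and 80.4 and 108 CPM in WT total RNA (log2 fold change -8.74, SE 0.23, adjusted p = 2.17e-11). Col11a1, a cartilage collagen, was at 28.4, 23.4 and 22.5 CPM against 583 and 871 CPM in total RNA, 36.8 to 38.8 CPM in IgG IP and 47.1 to 54.8 CPM in IMP1 IP. Cemip, which takes part in hyaluronan breakdown, was at 14.2, 15.2 and 15.5 CPM against 309.7 and 504 CPM, and Peg3, an imprinted zinc finger gene, at 3.37, 3.97 and 3.35 CPM against 84.4 and 116 CPM. Against IgG IP the 10 were lower by log2 fold changes of -0.46 (Jph2) to -2.73 (Dusp18), and against total RNA of -4.73 (Cemip) to -8.74 (Myh11). The selection fixed these directions. Pooled counts in IMP2 IP were 12 for Myh11, 31 for Dusp18 and 62 for Creld1, so their differences between pull-downs rest on few counts.

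**Figure D4:**
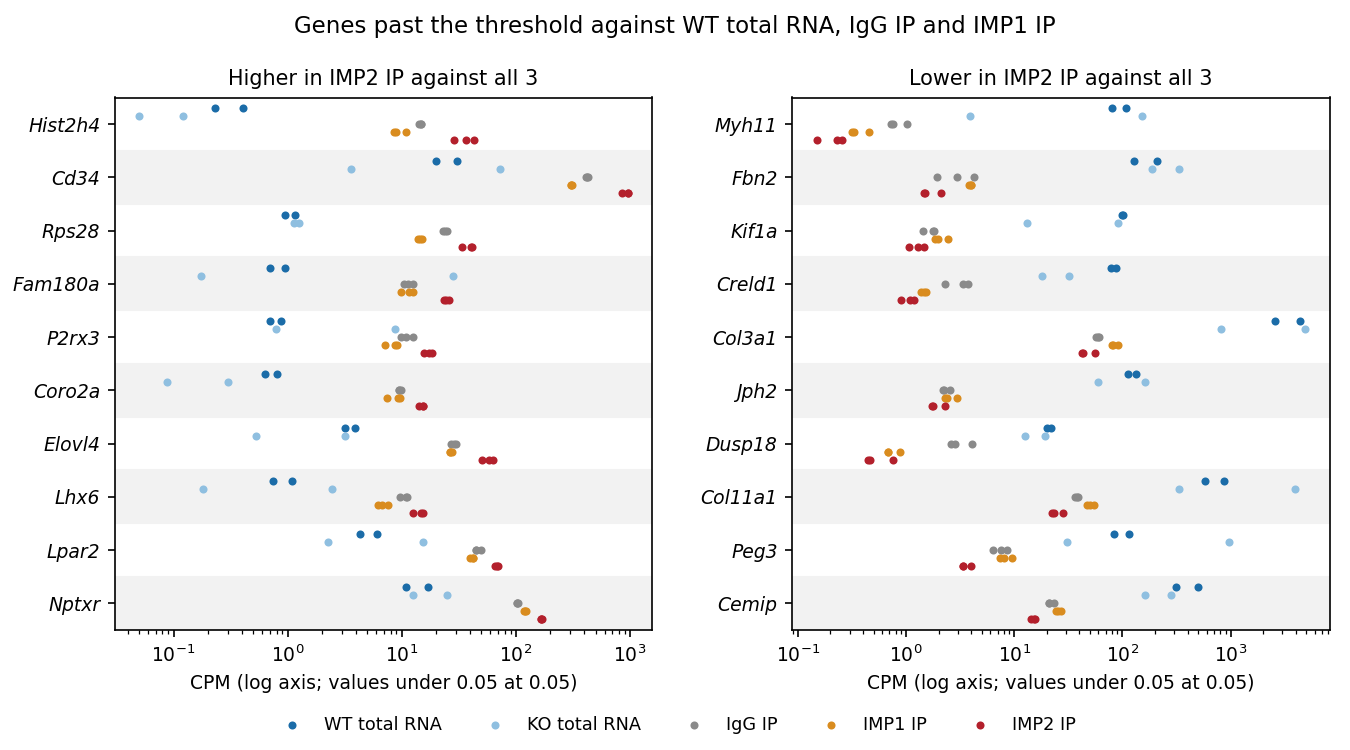
Level in each library of the 10 highest (left) and 10 lowest (right) named protein-coding genes that passed the threshold in the same direction against WT total RNA, IgG IP and IMP1 IP, in CPM on log axes, with values under 0.05 CPM drawn at 0.05. Each point is 1 library. Cd34 stands at 856 to 961 CPM in IMP2 IP, above the other groups, and IgG IP and IMP1 IP lie nearer to IMP2 IP than WT total RNA does for the genes shown.

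The length of the gene on the chromosome moved with the difference. Over 9523 protein-coding genes with an average log2 CPM of at least 3, split into 5 equal parts by gene span, the median log2 fold change of IMP2 IP over WT total RNA was -0.45 in the shortest part (median span 5.31 kb), then -0.0038, 0.23 and 0.54, and 0.75 in the longest (median 126 kb). IgG IP rose more steeply over the same total RNA, from -1.02 to 0.88, and IMP1 IP reached 1.19 in the longest. Directly against IgG IP, IMP2 IP went from 0.58 in the shortest part to -0.17 in the longest. In the shortest part 509 of 1904 genes were higher and 1085 lower than in total RNA, and in the longest 1254 of 1905 were higher and 451 lower. Across these genes Spearman's rho with span was 0.317 for IMP2 IP and 0.399 for IgG IP over total RNA. Genes are not independent replicates, they share the libraries, and span includes introns, so that transcript length was not tested.

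**Figure D5:**
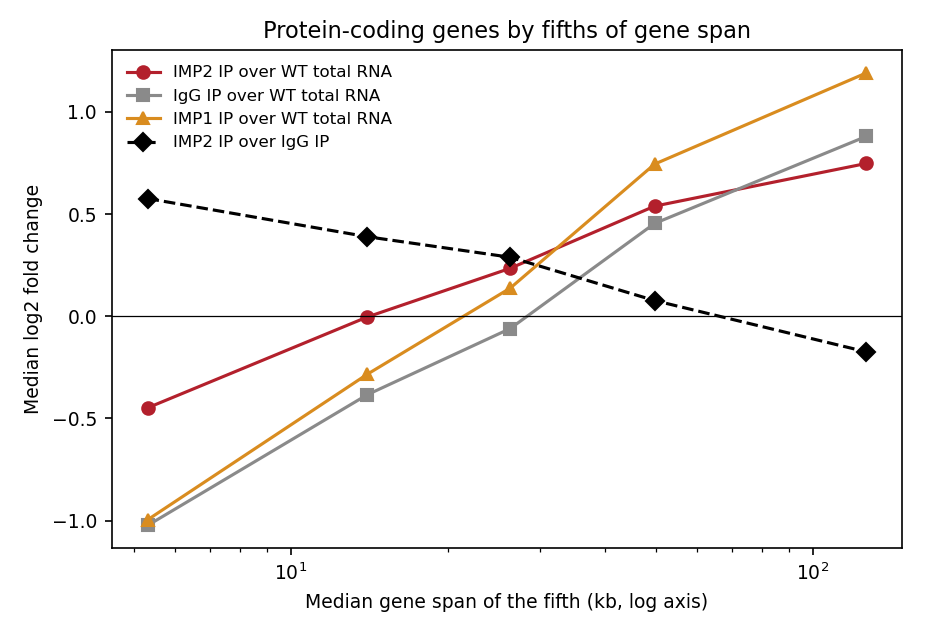
Median log2 fold change of protein-coding genes in 5 equal parts by gene span (x axis, median span of the part in kb, log axis). The solid lines are IMP2 IP (red circles), IgG IP (grey squares) and IMP1 IP (orange triangles) over WT total RNA, and the dashed line is IMP2 IP over IgG IP. The solid lines climb from the shortest to the longest part and the dashed line falls from 0.58 to -0.17.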

How the data were processed

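RNA of mouse embryonic fibroblasts was sequenced from Illumina TruSeq libraries, per the labels' protocols. The deposited files hold raw read counts per Ensembl gene, made by the authors with STAR, HTSeq and mm10, per the submitters' processing notes. Versions, strand use and the handling of reads with several alignments are not given in the sources used here. The last 5 lines of each file, which tally reads in no gene, were left out of library sizes and tests. Of 43629 genes, 42462 had a symbol and 33284 matched RefSeq (GRCm38.p6), used for position and class.

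The 3 IMP2 IP and 2 WT total RNA libraries were tested with edgeR 4.0.16 in R 4.3.3: filterByExpr, TMM scaling, the quasi-likelihood test and Benjamini-Hochberg adjustment over all tested genes, at an adjusted p under 0.05. IgG IP and IMP1 IP against total RNA were fitted the same way, and the 3 kinds of pull-down in 1 fit. Levels are plain CPM. A gene at 0 in a group is given a bound from 3 counts over that group's pooled libraries, and count ratios have exact 95% intervals. At these depths 3 counts are 0.138 to 0.203 CPM per library.

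Named genes were the 12 highest and 12 lowest protein-coding genes, the 5 highest and lowest non-coding genes, and the 10 highest and lowest also past the threshold against IgG IP and IMP1 IP. These 3 kinds passed the threshold, averaged 3 or more in log2 CPM, and had groups that did not overlap. Leading members of each list met the threshold and that average, with no rule on overlap. The 10 most abundant genes and all tested members of the partner and reported ligand lists were named without these limits. Predicted genes and pseudogenes were passed over in the first 3. Some members that this rule names are not reported here. The members and the 35 lists were chosen with earlier results of these data known, so a list is described by its counts and median and has no test.

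Tested on simulated data for this comparison, in a step of 14277 genes, the fit recovered 20%, 82%, 100% and 100% of 50 genes each changed 1.25-, 1.5-, 2- and 4-fold, and called 6 of 14077 unchanged genes. The simulation gave every library the same spread and changed only these genes, all well counted. In the data the coefficient of variation between libraries was 12.5% in WT total RNA and 5.85% in IMP2 IP, and 83.2% of genes passed. The simulated rates therefore need not hold for the data. Alternatives were 16 planned and 3 added after the data were seen, with DESeq2 1.42.0 and limma 3.58.1 among them.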

Additional observations from a re-analysis of the deposited data

Results flagged for a closer look

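For 3 named genes, IMP2 IP and IgG IP lay on opposite sides of WT total RNA, both differences from total RNA passed the threshold, and so did the direct test between both pull-downs. Ndufv1, of respiratory complex I, had a log2 fold change over total RNA of 0.50 in IMP2 IP and -0.16 in IgG IP, and IMP2 IP was higher than IgG IP by 0.64 (edgeR adjusted p = 9.37e-08). With upper quartile scaling the difference of Ndufv1 between IMP2 IP and total RNA was 0.24 and did not pass. Tuba1b, an alpha-tubulin, had 0.76 in IMP2 IP and -0.47 in IgG IP, a direct log2 fold change of 1.21 (edgeR adjusted p = 1.16e-13). Fat4, a giant cadherin, had -0.37 in IMP2 IP and 0.93 in IgG IP, a direct log2 fold change of -1.32 (edgeR adjusted p = 1.73e-17). The difference of Fat4 from total RNA did not pass without the IMP2 WT library (-0.064), without IMP2 IP replicate 1 (-0.37) or replicate 2 (-0.36), or with all 4 total RNA libraries (-1.47). Groups of 2 or 3 libraries allowed no test of single libraries that stand apart.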

How the results depend on the processing

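When edgeR tested each gene for a difference beyond 2-fold, 2772 genes were higher and 3638 lower than in WT total RNA, against 5792 and 6279 without that minimum. The 3341 and 4198 genes given earlier passed the ordinary test and had an estimate of 2-fold or more, which is a looser rule. Leaving out 1 library at a time gave 5352 to 5907 genes higher and 6014 to 6280 lower, and 47.09% to 48.59% of calls higher. Upper quartile scaling shifted the median of all genes by -0.26 and moved the share of calls that were higher from 47.98% to 39.75%, and against IgG IP from 51.92% to 39.88%. List medians that changed sign were reported IMP ligands (-0.032), translation factors (-0.17) and TGF-beta and BMP signalling (-0.069) with upper quartile scaling, translation factors at 10 CPM in 2 libraries (-0.074) and, with at least 1 CPM in both groups, translation factors (-0.058) and replication-dependent histones (-0.36), and with all 4 total RNA libraries glycolysis (0.098) and TGF-beta and BMP signalling (-0.019). Against total RNA, Igf2bp2 turned to 0.10 with all 4 total RNA libraries, Ybx3 ran from -0.30 to 0.27 with 1 library left out, and Fxr1 to -0.038 and Ccnd1 to -0.025 with upper quartile scaling. Against IgG IP, that scaling turned Col1a2 (-0.18), Fmr1 (-0.13), Matr3 (-0.12), Ctnnb1 (-0.13), Btrc (-0.024), Eif4b (-0.053), Hyou1 (-0.10), Hoxb9 (-0.12), Alkbh5 (-0.16), Aars (-0.12), Scd1 (-0.00048), Ifit2 (-0.13) and Tgfbr3 (-0.10). The cause was not tested. Of 274 named genes, DESeq2 kept the call and direction of 272 and all 4 total RNA libraries of 245. No paired analysis was possible because the total RNA labels carry no replicate numbers. Between pull-downs, same-numbered libraries correlated from -0.209 to 0.372 in their deviations, and differently numbered ones from -0.382 to 0.153. The highest values were between IMP1 IP and IMP2 IP, 0.372 for the libraries numbered 1 and 0.331 for those numbered 3. For those numbered 2 the value was -0.0011. Whether equal numbers mark a shared batch was not tested. A replicate block gave 5699 higher and 5262 lower against IgG IP, and 5268 and 4799 against IMP1 IP. With 2 total RNA libraries, genes under about 3 counts in a group are known only as bounds.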
